A study of Homo sapiens with 2 samples.

Results

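Secreted and membrane-bound proteases cut proteins at the cell surface and in the matrix, and a matching set of inhibitors limits them. The genes of both sides were taken here from expression arrays of MCF-10A, a human breast epithelial line that does not form tumours. The cells had received SCTR siRNA, a small interfering RNA that targets the SCTR transcript, or a negative control siRNA. Members were the probes of the authors' processed table whose gene symbol starts with ADAM, ADAMTS, MMP, TIMP, KLK, SERPINA, SERPINB, TMPRSS, CST or SPINT followed by a digit, or is ST14, PRSS8, HTRA1, SLPI, PI3 or FURIN, and that were detected on 1 or both arrays at the limit of 0.01 for the detection p-value. This gave 31 probes of 24 genes, among 13060 named probes of 10161 genes. Of the 24 genes 13 encode proteases (17 probes) and 11 inhibitors (14 probes). Among probes with such symbols, that of MMP23B lay just inside the detection limit, with a value of 0.0091 on the SCTR siRNA array, and that of ADAM2 just outside it, with 0.0208 on the same array, so ADAM2 is no member. The KLK, ADAMTS, PI3 and FURIN symbols gave 0 members. The rule leaves out 1 further ADAM gene, which is not reported here.

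The SCTR siRNA group and the negative control siRNA group each had 1 Illumina bead array, to which labelled cRNA from total RNA of the line was hybridised. The product of SCTR is the receptor for the hormone secretin, which couples to G proteins and raises cyclic AMP. With 1 array per group there is no spread between cultures to judge a difference by, no test was made, and what follows describes these 2 arrays. The siRNA sequences, the dose and the time after transfection are not stated in the labels, and with cells in bulk a change in the mix of cell states and a change in RNA per cell cannot be told apart. As 0 probes carried the name SCTR, the knockdown was not checked and each direction rests on the labels.

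The detected share of probes was 33.5% on the SCTR siRNA array and 32.2% on the control array, with median intensities of 124 and 122. Epithelial E-cadherin (CDH1) had an intensity of 13807 on the SCTR siRNA array and 4115 on the control array, and 4 of 11 listed basal mammary markers (LAMB3, EGFR, ITGB4 and CDH3) were measured, all 4 higher on the SCTR siRNA array, with a median log2 difference of 1.41. Of 10 luminal markers 5 were measured, with a median of 0.47, 4 above 0 (among them AGR2 at 2.26 and CD24 at 1.15) and ERBB3 at -0.67. Of 8 leukocyte markers only CD14 and CD68 were measured, with a summed intensity of 19353 on the SCTR siRNA array and 13013 on the control array. They went opposite ways, CD14 with an intensity of 13060 on the SCTR siRNA array against 3934 on the control array (log2 difference 1.78), and CD68 with 6292 against 9079 (-0.52). The defining leukocyte gene PTPRC had no named probe in the table used. Of 8 fibroblast markers 1 had a named probe, which did not pass detection on both arrays, and of 5 endothelial markers 0 had one. The part of these markers in the results below was not tested.

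Several families carry most of the proteolysis at an epithelial surface. ADAM proteins are membrane-anchored metalloproteases that release the outer parts of growth factors, cadherins and Notch, and matrix metalloproteases (MMP) cut matrix proteins. The membrane serine protease matriptase (ST14) and the lipid-anchored prostasin (PRSS8) act in one cascade, held in check by the Kunitz-type inhibitors of SPINT1 and SPINT2. Tissue inhibitors of metalloproteases (TIMP) block MMP and ADAM enzymes, serpins trap serine proteases by a suicide mechanism, and cystatins block cysteine proteases such as the cathepsins.

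Start-site sequences are shown for the members that stood furthest apart between the arrays and that the RefSeq table of promoters holds (build GRCh38.p14), as the genomic context of HTRA1 and TIMP3, higher on the SCTR siRNA array, of SERPINB1, lower there, and of ADAM19, detected there alone. Each is the 250 bases before the annotated start, written 5′ to 3′ on the gene's strand, at chr10:122461303-122461552 (plus strand) for HTRA1, chr22:32801455-32801704 (plus) for TIMP3, chr6:2841864-2842113 (minus) for SERPINB1 and chr5:157575776-157576025 (minus) for ADAM19. Capitals mark matches, on either strand, to a GC box (GGGCGG), an ETS site (CCGGAAG), an AP-1 site (TGANTCA), a cyclic AMP response element (TGACGTCA), a TATA box (TATAAA) or the core of an antioxidant response element (TGACNNNGC).
HTRA1: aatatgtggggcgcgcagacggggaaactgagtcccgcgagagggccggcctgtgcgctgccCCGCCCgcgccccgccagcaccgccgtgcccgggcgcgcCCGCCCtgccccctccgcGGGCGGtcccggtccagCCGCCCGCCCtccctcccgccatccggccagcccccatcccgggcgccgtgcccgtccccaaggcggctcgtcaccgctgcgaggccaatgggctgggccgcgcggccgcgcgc
TIMP3: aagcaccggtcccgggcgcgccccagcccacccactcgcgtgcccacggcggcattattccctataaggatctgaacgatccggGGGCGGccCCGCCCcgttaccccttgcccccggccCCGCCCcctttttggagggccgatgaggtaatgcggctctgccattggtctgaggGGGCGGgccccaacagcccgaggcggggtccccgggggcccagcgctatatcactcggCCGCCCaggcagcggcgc
SERPINB1: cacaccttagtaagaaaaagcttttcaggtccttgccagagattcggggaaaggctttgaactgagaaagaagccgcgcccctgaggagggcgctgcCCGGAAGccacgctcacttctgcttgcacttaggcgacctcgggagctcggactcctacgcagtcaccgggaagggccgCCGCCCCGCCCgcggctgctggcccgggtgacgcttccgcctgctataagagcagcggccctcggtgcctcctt
ADAM19: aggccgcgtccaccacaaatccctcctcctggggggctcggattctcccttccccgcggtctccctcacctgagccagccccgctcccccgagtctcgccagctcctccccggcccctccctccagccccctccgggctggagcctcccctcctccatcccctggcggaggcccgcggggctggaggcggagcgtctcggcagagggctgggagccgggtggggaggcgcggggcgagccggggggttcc

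GC boxes were the common match. HTRA1 and TIMP3 each had 5, a pair of those in HTRA1 overlapping, and SERPINB1 had 2, also overlapping. Over the 17 member genes with a window in the table, 13 held a GC box, against 53.7% of 22199 windows of protein-coding genes. Because a gene with several start sites was counted when any of its windows matched, these shares are not on the same footing. ETS sites stood before SERPINB1 (153 bases from the start) and CST3 (41 bases), against 10.7% of all windows. The cyclic AMP response element was found in 0 of the 17 genes (2.01% of all windows) and the antioxidant core in 0 (11.2%), while TMPRSS15 alone held an AP-1 site (5.36%) and a TATA box (9.0%). The window of ADAM19 held none of the 6 motifs. A match is a description of letters and not a binding site.

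Proteases were more often higher than lower on the SCTR siRNA array, and inhibitors went both ways. Of the 10 protease genes with a probe past detection on each array, 7 were above 0 and 3 below, and the median difference in log2 level (SCTR siRNA minus negative control siRNA) was 0.55, with a range from -0.20 to 1.20. Of the 11 inhibitor genes, 6 were above 0 and 5 below, with a median of 0.12 and a range from -1.73 to 1.38. Over all 8661 named genes detected on both arrays the median was -0.09 and 44.5% lay above 0. At least 2-fold higher were 2 of 10 proteases and 1 of 11 inhibitors, where 9.73% of all genes were, and at least 2-fold lower were 0 proteases and 1 inhibitor, where 8.44% of all genes were. At 1.5-fold, 4 proteases and 3 inhibitors were higher (19.5% of all genes) and 0 proteases and 1 inhibitor were lower (22.6%). The median of proteases was 0.43 above that of inhibitors, and the range of the proteases lay within that of the inhibitors. The 3 proteases below 0 (MMP11, TMPRSS7 and TMPRSS12) were dim, as was MMP15 above 0. Intensities in this text are those before normalization. TMPRSS12 (181 against 173 on the control array) and TMPRSS7 (159 against 157) had slightly higher intensities on the SCTR siRNA array, so their signs rest on the normalization. Members are different genes and not replicates, and such counts are small.

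**Figure D1:**
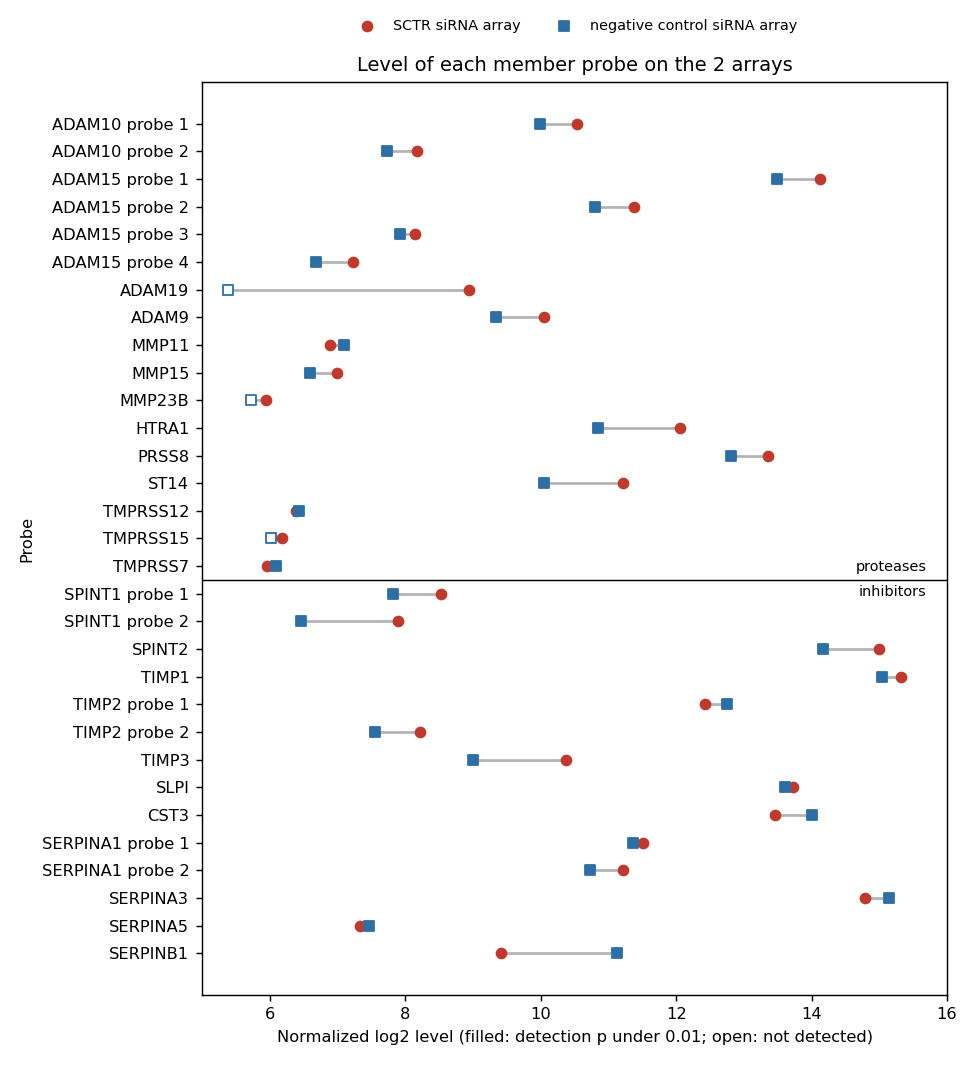
Normalized log2 level (x axis) of each of the 31 member probes (y axis) on the SCTR siRNA array (red circles) and the negative control siRNA array (blue squares), proteases above and inhibitors below the line; open symbols mark a detection p of 0.01 or more. The widest gaps are those of ADAM19, not detected on the control array, and of SERPINB1, the widest gap with the control array on the higher side.

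The ADAM genes encode the membrane sheddases. All 3 with a value on both arrays lay above 0 (44.5% of all genes), at log2 differences from 0.54 to 0.70. At least 1.5-fold higher were 2 of them (19.5% of all genes), and 0 reached 2-fold (9.73%). With 3 genes such a count is small. ADAM10, the sheddase of Notch receptors and E-cadherin, had an intensity of 1592 on the SCTR siRNA array and 1095 on the control array, a log2 level of 10.53 against 9.99 and a difference of 0.54 (1.46-fold). Its second probe gave 0.44, from 8.17 on the SCTR siRNA array against 7.73 on the control array. Both probes were thus on the same side by a similar amount.

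ADAM15, an ADAM with an integrin-binding disintegrin domain, was read by 4 probes. The brightest had an intensity of 17002 on the SCTR siRNA array and 11734 on the control array, and a log2 difference of 0.63 (1.55-fold). The other 3 gave 0.58, 0.54 and 0.22, so all 4 were higher on the SCTR siRNA array by unequal amounts. ADAM9, a widely expressed sheddase, had an intensity of 1164 on the SCTR siRNA array against 735 on the control array, and a log2 difference of 0.70 (1.62-fold). That value was larger than the differences of 83.6% of all genes.

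ADAM19, which can shed neuregulin, stood apart from the other ADAM genes. Its only probe had an intensity of 594 on the SCTR siRNA array and 130 on the control array, where its detection p was 0.0727. The control value was therefore not told from background, and the level was at least 7.46-fold higher on the SCTR siRNA array. Of 440 genes detected on the SCTR siRNA array alone, 18.0% had a bound of at least 2-fold. The size of the bound depended on the background treatment, at 3.68-fold without correction and 3.67-fold in the authors' values.

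The matrix metalloproteases were dim. MMP15, a membrane-type MMP, had an intensity of 228 on the SCTR siRNA array against 183 on the control array, with a log2 difference of 0.40 that shrank to 0.22 without background correction. MMP11 (stromelysin-3) had 219 on the SCTR siRNA array against 221 on the control array, and a log2 difference of -0.20. MMP23B passed detection on the SCTR siRNA array alone, at an intensity of 158 against 142 on the control array, and no fold can be given, since its level was under the floor of detected probes of the control array. No secreted collagenase, stromelysin other than MMP11, or gelatinase was among the members, and probes without a name in the table are not analysed here.

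The serine proteases split into 3 bright genes that were higher on the SCTR siRNA array and 3 dim ones with little difference. HTRA1, a secreted protease that cuts matrix proteins and dampens TGF-beta signalling, had an intensity of 4369 on the SCTR siRNA array and 1912 on the control array. Its log2 level was 12.05 against 10.85, a difference of 1.20 (2.30-fold), larger than those of 93.0% of all genes. It led the proteases with a value on both arrays, and over the alternative settings its difference stayed between 1.16 and 1.20.

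Matriptase (ST14), which activates pro-HGF, urokinase and prostasin, had an intensity of 2486 on the SCTR siRNA array and 1140 on the control array, with log2 levels of 11.21 and 10.05. The difference of 1.16 (2.23-fold) was close to that of HTRA1. Prostasin (PRSS8), its partner in the cascade, had an intensity of 10586 on the SCTR siRNA array against 7354 on the control array, a log2 difference of 0.56 (1.47-fold). Both enzymes of the cascade were thus on the same side, and prostasin did not reach 1.5-fold. TMPRSS12, TMPRSS7 and TMPRSS15 are transmembrane serine proteases, TMPRSS15 being the enteropeptidase of the gut. All 3 lay at the limit of detection, with intensities between 159 and 181 on the SCTR siRNA array and between 154 and 173 on the control array. TMPRSS12 differed by -0.04 and TMPRSS7 by -0.13 on the log2 scale. TMPRSS15 passed detection on the SCTR siRNA array alone, with a bound of 1.11-fold.

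**Figure D2:**
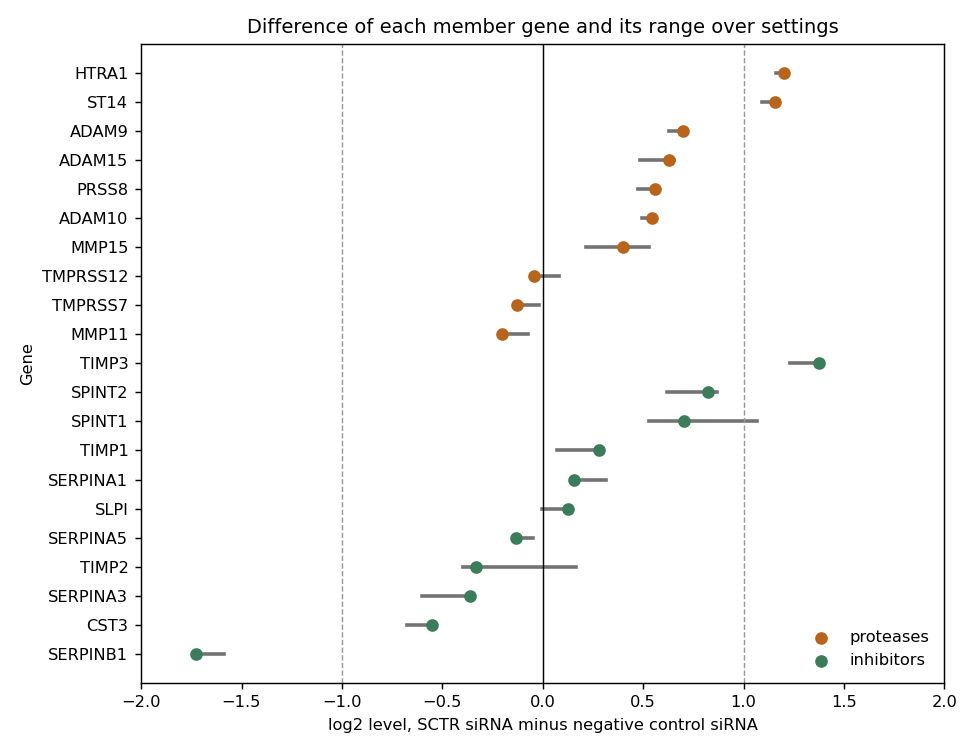
Difference in log2 level, SCTR siRNA minus negative control siRNA (x axis), of each member gene detected on both arrays (y axis), proteases in orange above inhibitors in green; points give the main setting, grey bars the lowest and highest value over the 9 settings, and dashed lines 2-fold. HTRA1 (1.20), ST14 (1.16) and TIMP3 (1.38) stay beyond the upper line and SERPINB1 (-1.73) beyond the lower one in every setting shown. The settings for detection, probe averaging and minimum level could not move these genes, each read by 1 probe.

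The inhibitors of matriptase and prostasin were higher along with the enzymes. SPINT2 (HAI-2) had an intensity of 31176 on the SCTR siRNA array and 19578 on the control array, a log2 difference of 0.82 (1.77-fold). SPINT1 (HAI-1) had 469 on the SCTR siRNA array and 311 on the control array by its brighter probe, a log2 difference of 0.70 (1.63-fold). Its dimmer probe gave 1.43, from an intensity of 338 on the SCTR siRNA array against 175 on the control array, and 0.88 in the authors' values. Averaged over both probes SPINT1 was at 1.07 and passed 2-fold. In all, ST14, PRSS8, SPINT1 and SPINT2 were higher on the SCTR siRNA array, with differences from 0.56 to 1.16 on the log2 scale.

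The TIMP genes differed in size and direction. TIMP3, the matrix-bound TIMP that blocks ADAM as well as MMP enzymes, had an intensity of 1437 on the SCTR siRNA array and 594 on the control array. Its log2 level was 10.38 against 9.01, a difference of 1.38 (2.59-fold), the largest of the members with a value on both arrays and larger than those of 95.1% of all genes. TIMP1, a soluble TIMP, was bright on both arrays, with an intensity of 38512 on the SCTR siRNA array and 35315 on the control array, and differed by 0.28 on the log2 scale (0.07 under median scaling).

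TIMP2, which inhibits MMP2 and also takes part in its activation, gave no settled direction. Its brighter probe had an intensity of 5576 on the SCTR siRNA array and 7050 on the control array, a log2 difference of -0.33. The dimmer probe had 397 on the SCTR siRNA array and 272 on the control array, a log2 difference of 0.66. It was the only member of 5 with several probes whose brightest pair had opposite signs, and over all 1902 genes with such a pair 17.9% did. The median gap between the brightest pair of probes was 0.33 over those 5 genes and 0.19 over the 1902, and for 90% of the 1902 it was at most 0.70. In size, only TIMP3, HTRA1, ST14, SERPINB1, SPINT2, SPINT1 and ADAM9 differed by more than that last value. SPINT1 and ADAM9, both at 0.70, barely exceeded it. All other members with a value on both arrays, among them ADAM10, ADAM15, PRSS8 and CST3, had smaller differences. The value of 0.70 comes from probes of the same gene on the same arrays. It holds no spread between cultures and is thus no noise limit for the differences of the members. SPINT1 itself gave 0.70 and 1.43 by its brighter and dimmer probes. TIMP3, HTRA1, ST14, SERPINB1, SPINT2 and ADAM9 had 1 probe each, so no gap between probes is known for them.

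SERPINB1, an intracellular serpin that inhibits neutrophil elastase and cathepsin G, was the member furthest below 0. Its intensity was 782 on the SCTR siRNA array and 2314 on the control array, and its log2 level 9.41 against 11.13. The difference of -1.73 means a level 3.31-fold lower with SCTR siRNA, and 1.47% of all genes had a lower value. Over the settings it stayed between -1.74 and -1.59.

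The clade A serpins differed less. SERPINA3 (alpha-1-antichymotrypsin), an inhibitor of cathepsin G and chymase, had an intensity of 26251 on the SCTR siRNA array and 38314 on the control array, a log2 difference of -0.36 (-0.60 under median scaling). SERPINA1 (alpha-1-antitrypsin), the main plasma inhibitor of neutrophil elastase, had 3067 on the SCTR siRNA array and 2682 on the control array, a log2 difference of 0.15, and 0.48 by its second probe. SERPINA5, the protein C inhibitor, was dim at an intensity of 260.3 on the SCTR siRNA array and 260.0 on the control array. The sign of its log2 difference of -0.13 rests on the normalization. These genes belong to a serpin cluster on chromosome 14. In the RefSeq gene table SERPINA5 and SERPINA3 are next to each other, and 4 other genes, all of clade A, lie between SERPINA1 and SERPINA5. None of the 3 differed by 1.5-fold between the arrays, except SERPINA3 under median scaling.

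The remaining inhibitors are small secreted proteins. Cystatin C (CST3), the main extracellular inhibitor of cysteine cathepsins, had an intensity of 11251 on the SCTR siRNA array and 17240 on the control array, a log2 difference of -0.55 (1.47-fold lower), and -0.68 under median scaling. SLPI, a mucosal inhibitor of neutrophil elastase, had 13157 on the SCTR siRNA array and 12687 on the control array, a log2 difference of 0.12 that was at 0.00 under median scaling. All inhibitors of neutrophil serine proteases among the members other than SERPINB1 (SERPINA1, SERPINA3 and SLPI) were within 1.5-fold in the main setting.

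Genes outside the symbol rule were read from 8 further lists, 3 of proteases or inhibitors and the others of sheddase partners, substrates, receptors and transcription factors. The lists were chosen with earlier results of these data known. Their counts beside those of all genes thus describe the lists and lend no support to the results of the members. Cathepsins and legumain, proteases of the lysosome that can be secreted, had a median log2 difference of 1.02 over 10 measured genes, with 6 at least 2-fold higher on the SCTR siRNA array and 0 lower, where 9.73% and 8.44% of all genes were. CTSV was at 3.03, CTSC, the activator of granule serine proteases, at 2.30 (other probes 2.53 and 2.26), CTSB at 1.24 and CTSH at 1.16. CTSA (1.03) and CTSD (1.02) were close to the 2-fold limit, at 0.99 and 0.98 in the authors' values. CST3, the inhibitor of the cysteine cathepsins only, was at -0.55, and the intracellular cystatins CSTA and CSTB at 0.57 and -0.20. Thus 8 of the 10 genes of the list were above 0 (44.5% of all genes), and CTSF (-0.46) and LGMN (-0.36) were below it.

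The list of other pericellular proteases had a median log2 difference of 0.27 over 10 genes. These 10 count the receptor PLAUR, which is no protease, and the mitochondrial protease HTRA2 (-0.47). At least 2-fold higher were 2 and lower was 1 (9.73% and 8.44% of all genes), counts near the background at this list size. The urokinase gene PLAU, whose product matriptase can activate, had an intensity of 7992 on the SCTR siRNA array and 980 on the control array, a log2 difference of 3.14, while its receptor PLAUR was at 0.08. PRSS23 was at -2.08, carboxypeptidase E (CPE) at 1.44 and the endothelin-converting enzyme ECE2 at 0.80. Without a detection filter the list's median was 0.47. Other protease inhibitors had a median of 0.53 over 8 genes, with 3 at least 2-fold higher and 0 lower (9.73% and 8.44% of all genes). SERPINE2 (protease nexin), an inhibitor of thrombin and urokinase, was at 2.26, WFDC2 at 1.16 (0.64 in the authors' values, short of 2-fold), and PEBP1, known as an inhibitor of RAF kinase, at -0.84. SERPINH1 (2.25), counted among those 3 genes, belongs to the serpin family but acts as a collagen chaperone.

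The listed partners and substrates of sheddases were mostly higher on the SCTR siRNA array. Sheddase partners had a median log2 difference of 0.89 over 11 genes, with 4 at least 2-fold higher and 0 lower (9.73% and 8.44% of all genes). The ADAM-binding adaptor SH3PXD2A was at 2.52, TSPAN14, a tetraspanin that escorts ADAM10, at 1.5, the iRhom gene RHBDF2 at 1.46 (other probes 1.55 and 1.12) and TSPAN5, another tetraspanin partner of ADAM10, at 1.42 (0.89 in the authors' values, short of 2-fold). Of shed ligands of the EGF receptor 2 were measured, HBEGF at 4.01 (2.97 in the authors' values), with an intensity of 1369 on the SCTR siRNA array and a dim 167 on the control array, and TGFA at 1.28, with a median of 2.64 that was 0.91 without a detection filter.

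Other shed surface proteins had a median log2 difference of 0.89 over 20 genes, 19 above 0 (44.5% of all genes), with 8 at least 2-fold higher and 0 lower (9.73% and 8.44% of all genes). They were led by the syndecan SDC1 (2.76), NOTCH1 (2.75), the ephrin receptor EPHA2 (2.45) and JAG1 (2.33). The protease-activated receptor and matriptase target list had a median of 0.76 over 6 genes, 6 of them above 0 (44.5% of all genes) and 2 at least 2-fold higher (9.73%). In it, CDCP1, a surface protein cut by matriptase, was at 1.59, EPCAM at 0.82 (other probes 0.89 and 0.92), the sodium channel subunit SCNN1A at 0.71. PLAU (3.14) and PLAUR (0.08), also of this list, stand in the list of pericellular proteases as well. The list of ETS and AP-1 factors, known to act on promoters of protease genes, had a median of 0.49 over 11 genes. It also counts RUNX1 (0.88), which belongs to neither family. At least 2-fold higher were 0 genes and lower were 2 (9.73% and 8.44% of all genes), FOS at -1.97 and ETS2 at -1.18. JUN was at 1.00 (0.996 before rounding, short of 2-fold).

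**Figure D3:**
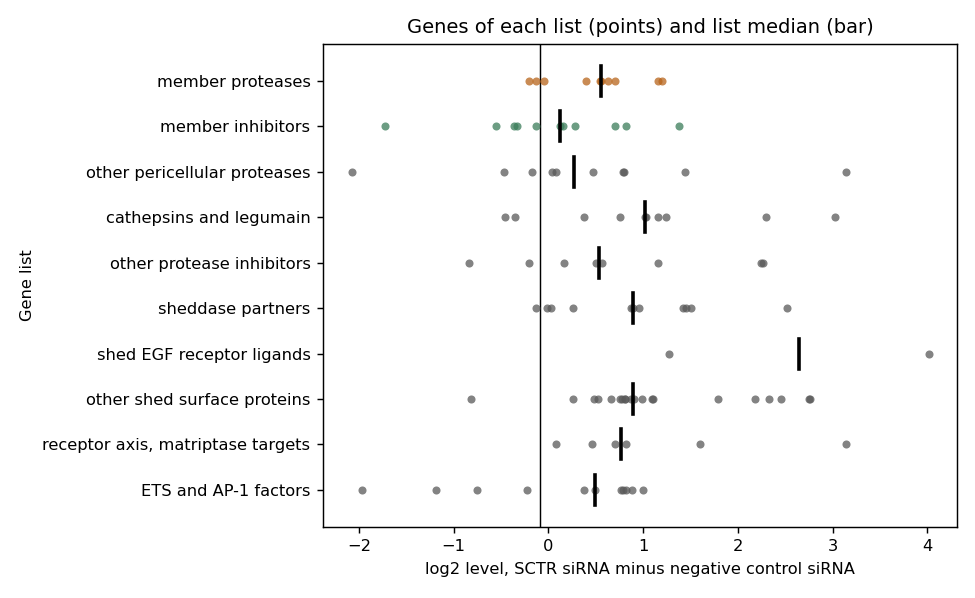
Difference in log2 level, SCTR siRNA minus negative control siRNA (x axis), of each measured gene (points) of the member proteases, the member inhibitors and 8 further lists (y axis); thick bars give list medians and the thin vertical line the median of all named genes (-0.09). The medians run from 0.12 for member inhibitors to 2.64 for the 2 shed EGF receptor ligands.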

How the data were processed

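Per the labels' protocols, total RNA was extracted, treated with DNase and made into biotin-labelled cRNA. The table deposited by the authors gives, per probe, a detection p-value and an intensity for each of the 2 arrays (47323 probes, 47316 with a signal), and the submitters' processing notes name GenomeStudio 2011.1. No intensity was negative (lowest 61.1 on the SCTR siRNA array and 64.3 on the control array). The authors' processed table holds log2 levels of 16871 probes, which correlated with the log2 intensities of the same array with r = 1.00 and have a median of 8.57 on both arrays. The sorted levels of the 2 arrays in it differed by at most 0.00042, so both arrays have the same distribution there, as after quantile normalization. The steps behind that table are not stated in the files or labels.

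Background was removed from the intensities with limma 3.58.1 in R 4.3.3 (normal-exponential model, background inferred from the detection p-values, offset 16), and the values were quantile normalized and log2-transformed. Symbols came from the platform annotation of the processed table. A symbol was given for 13060 probes, 3 had several and 3808 none. Gene IDs were matched to RefSeq, which changed 0 symbols. The brightest probe that passed the detection limit of 0.01 on both arrays stood for its gene. Where a gene passed on 1 array, its level there was compared with the probe's level on the other array or with the floor of detected probes there (6.04 on the control array), whichever was higher. Motifs were searched with Python 3.11.15. The steps were tested on simulated data.

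Every member gene is named, and of each further list up to 4 genes with the largest absolute difference. CSTA, CSTB, CTSA, CTSD, CTSF, LGMN, HTRA2 and PLAUR were named in addition, after their values were seen. CDH1 and CDH3 also stand in the list of other shed surface proteins and were named with the cell type markers. The members and lists were chosen with earlier results of these data known. Alternatives were no background correction, offset 50, median scaling over detected probes, the authors' values, a looser detection limit of 0.05, no such limit, averaged probes, a minimum mean log2 level of 7, a 1.5-fold limit and members at their bound.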

Additional observations from a re-analysis of the deposited data

How the results depend on the processing

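No paired analysis was possible because each group has 1 array, and for the same reason no array could be left out. SERPINB1, HTRA1, ST14 and TIMP3 stayed at least 2-fold apart, in the same direction, under each alternative. Each has 1 probe, well detected on both arrays, so the alternatives for detection, probe averaging and minimum level could not change its value. Only those for background, scaling and the authors' values could. The number of inhibitors at least 2-fold higher was 2 with probes averaged per gene (SPINT1 then at 1.07), and at a 1.5-fold limit 4 proteases and 3 inhibitors were higher. The median of inhibitors was -0.0027 under median scaling, that of its middle member SLPI. TIMP2 changed sign when its probes were averaged, at 0.16, and TMPRSS12 under median scaling, at 0.08. The median over all named genes lay between -0.09 and -0.05 in all settings. The MMP and TMPRSS probes lay near background, and so did that of ADAM19 on the control array, which limits these values.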
